A study of Mus musculus with 8 samples.

Results

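Nynrin and 7 related genes were examined in haematopoietic stem cells (HSCs) of mice in which Nynrin had been deleted. The set was chosen by gene name in the deposited count table: Nynrin, Khnyn, N4bp1, Zc3h12a, Zc3h12b, Zc3h12c, Zc3h12d and Marf1. These are 8 of 55401 annotated genes, and all 8 passed the filter on low counts. Nynrin CKO libraries came from Nynrin fl/fl mice carrying Tie2-Cre, and WT libraries came from Nynrin fl/fl mice without the Cre. Both groups therefore carried the floxed allele and the C57BL/6 background, and the Cre transgene was present in the CKO group only. Tie2-Cre deletes in endothelium and throughout the blood lineages, so the deletion is not restricted to HSCs. About 3000 HSCs per sample were sorted from bone marrow at 8 weeks of age, though a smaller cell number is also given, and the series holds 4 libraries per group. The labels do not state that the 4 libraries of a group came from separate mice, so p-values measure the spread between libraries, which may be partly technical.

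NYN domains are RNase domains of the PIN-like fold, named after N4BP1, the bacterial YacP nucleases and their relatives. In animals they occur in proteins that cut messenger or viral RNA. Nynrin joins a NYN domain to an integrase-like stretch derived from a retroelement. Khnyn is its close relative with a KH-like domain and acts in human cells with the zinc finger antiviral protein ZAP to cut CpG-rich viral RNA. N4bp1 restrains NF-kB-driven cytokine output and is inactivated by cleavage through caspase-8 or the paracaspase MALT1. Zc3h12a encodes Regnase-1, which cuts stem-loops in the mRNAs of cytokines and their regulators, and Zc3h12b, Zc3h12c and Zc3h12d encode its paralogs. Marf1 is an RNase required for oocyte meiosis in the mouse and recruits the decapping machinery in cultured human cells.

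Nynrin lies on chromosome 14 of mm10 from 55854010 to 55874736 on the plus strand. Its annotated protein-coding transcript has 8 exons and 7511 bases, of which 61.4% fall in the longest exon and 5520 are coding. Khnyn follows 10.2 kb downstream on the same strand, from 55884947 to 55896781. The other members lie on other chromosomes: N4bp1 on chromosome 8 (86808160 to 86885258, minus strand), Zc3h12a on chromosome 4 (125118423 to 125127840, minus strand), Zc3h12b on chromosome X (95711678 to 95928230, plus strand), Zc3h12c on chromosome 9 (52111344 to 52168572, minus strand), Zc3h12d on chromosome 10 (7832470 to 7870396, plus strand) and Marf1 on chromosome 16 (14109173 to 14159267, minus strand). Marf1 is divided into 27 annotated exons.

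Promoter sequences of 3 members are shown because Nynrin and Zc3h12b were the members with lower levels in every Nynrin CKO library than in any WT library, and because Khnyn is the neighbour of Nynrin. Each runs from 250 bases before to 50 bases after the annotated start, 5′ to 3′, and comes from RefSeq on GRCm38.p6, the assembly also called mm10. The windows are chr14:55853865-55854164 (plus strand) for Nynrin, chr14:55884692-55884991 (plus strand) for Khnyn and chrX:95711428-95711727 (plus strand) for Zc3h12b. Capitals mark the GC box letters GGGCGG, read on either strand.
Nynrin: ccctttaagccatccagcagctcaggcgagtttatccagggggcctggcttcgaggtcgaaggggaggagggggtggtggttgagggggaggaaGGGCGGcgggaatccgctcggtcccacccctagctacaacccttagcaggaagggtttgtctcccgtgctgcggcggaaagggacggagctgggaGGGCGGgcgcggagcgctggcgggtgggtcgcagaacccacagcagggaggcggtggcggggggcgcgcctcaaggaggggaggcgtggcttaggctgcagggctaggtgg
Khnyn: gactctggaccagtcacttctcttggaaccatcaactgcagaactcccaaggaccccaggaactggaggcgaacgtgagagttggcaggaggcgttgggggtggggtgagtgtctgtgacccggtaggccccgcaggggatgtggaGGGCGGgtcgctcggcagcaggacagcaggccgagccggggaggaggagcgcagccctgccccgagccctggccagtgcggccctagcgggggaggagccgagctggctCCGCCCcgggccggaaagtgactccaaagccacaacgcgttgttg
Zc3h12b: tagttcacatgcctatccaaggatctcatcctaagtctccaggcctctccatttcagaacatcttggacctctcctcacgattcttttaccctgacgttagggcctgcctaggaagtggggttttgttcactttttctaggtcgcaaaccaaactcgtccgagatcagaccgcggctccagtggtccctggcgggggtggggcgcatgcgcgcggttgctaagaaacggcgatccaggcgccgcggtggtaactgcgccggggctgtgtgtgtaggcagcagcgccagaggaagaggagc
The Nynrin window held 22 CpG dinucleotides and 2 GC boxes at a GC content of 69.0%. Khnyn's window was similar, with 20 CpG dinucleotides, 2 GC boxes and 67.7% GC. That of Zc3h12b held 20 CpG dinucleotides and no GC box at 58.0% GC. Over all 32851 promoters of the RefSeq table the median was 7 CpG dinucleotides and 52.7% GC, and 35.7% held a GC box on either strand. All 8 members had an entry, with 2 windows for Zc3h12c, and the other members held between 0 and 8 GC boxes per window. The ETS letters CGGAAG, found on either strand in 16.9% of all promoters, occurred in the windows of N4bp1, Zc3h12a and Marf1, where in Marf1 they overlap a run of GC boxes. They were not found in the 3 windows printed here. Searched likewise on both strands, the GATA letters AGATAA occurred in 1 of the 2 Zc3h12c windows and in 11.2% of all promoters. The RUNX letters TGTGGT occurred in the Marf1 window and in 16.8% of all promoters.

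Total counts ran from 36942835 to 56437299 per library. The libraries differed in ways that the groups did not account for. Nynrin CKO 3, Nynrin CKO 4 and WT 4 had few reads on olfactory and vomeronasal receptor genes (177 to 216 CPM, counts scaled to a common library total), and the other 5 libraries had more (873 to 1449 CPM). Xist, the RNA of the inactive X chromosome, stood at 4176 and 4280 CPM in WT 3 and WT 4 and at 5.8 to 11.4 CPM in the other 6 libraries. The 15 HSC markers were all detected, with a summed level of 4856 to 5911 CPM in Nynrin CKO and 4278 to 5017 CPM in WT. The 1 HSC marker called was Tek, the gene also named Tie2 whose promoter gives Tie2-Cre its name, at 153 ± 7.91 CPM in Nynrin CKO and 35.5 ± 7.43 CPM in WT (SD, n = 4 each; log2 fold change 2.10, edgeR adjusted p = 0.00620). Markers of other blood cells were present too, and none of them lacked counts. Neutrophil markers summed to 475 to 4115 CPM in Nynrin CKO, with the 2 highest sums in Nynrin CKO 3 and 4, and to 205 to 357 CPM in WT. Erythroid markers summed to 2072 to 2471 CPM in Nynrin CKO and to 1094 to 1422 CPM in WT, and endothelial markers to 157 to 286 CPM in Nynrin CKO and to 160 to 191 CPM in WT. The part of these differences in the results was not tested.

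Nynrin RNA was lower in all 4 Nynrin CKO libraries than in any WT library. Scaled levels were 12.7, 12.3, 8.24 and 8.22 CPM in Nynrin CKO 1 to 4, against 41.3, 47.5, 30.1 and 30.4 CPM in WT 1 to 4. These rest on 342 to 598 counts per Nynrin CKO library and 1280 to 1996 counts per WT library. The means were 10.4 ± 2.49 CPM in Nynrin CKO and 37.3 ± 8.56 CPM in WT (SD, n = 4 each), so that 27.8% of the WT level was left. In edgeR's quasi-likelihood test the log2 fold change was -1.85 (SE 0.22, 95% interval -2.34 to -1.35, adjusted p = 0.0345 over 27573 genes). A two-sided exact permutation test over 70 assignments gave p = 0.0286, the smallest it can give. The log2 fold change was -1.66 among the libraries with more receptor reads and -1.89 among those with few, where WT 4 stands alone. Without 1 library the log2 fold change stayed between -2.0 and -1.70, while the adjusted p ranged from 0.0240 without WT 4 to 0.123 without WT 2.

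The call on Nynrin was therefore lost when Nynrin CKO 1 (adjusted p = 0.0553), Nynrin CKO 2 (0.0545), Nynrin CKO 3 (0.0976), Nynrin CKO 4 (0.0975), WT 1 (0.0965) or WT 2 (0.123) was left out of the edgeR fit. Within each genotype the libraries also separated, with Nynrin CKO 3 and 4 below Nynrin CKO 1 and 2, and WT 3 and 4 below WT 1 and 2. The sources used here do not say which part of Nynrin is floxed. A count over the whole gene includes any transcribed exons outside the deleted part, and the remaining Nynrin counts cannot be divided between cells that kept the gene and transcripts from the deleted allele. In bulk samples of this kind, fewer cells of a type and less RNA per cell cannot be told apart.

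**Figure D1:**
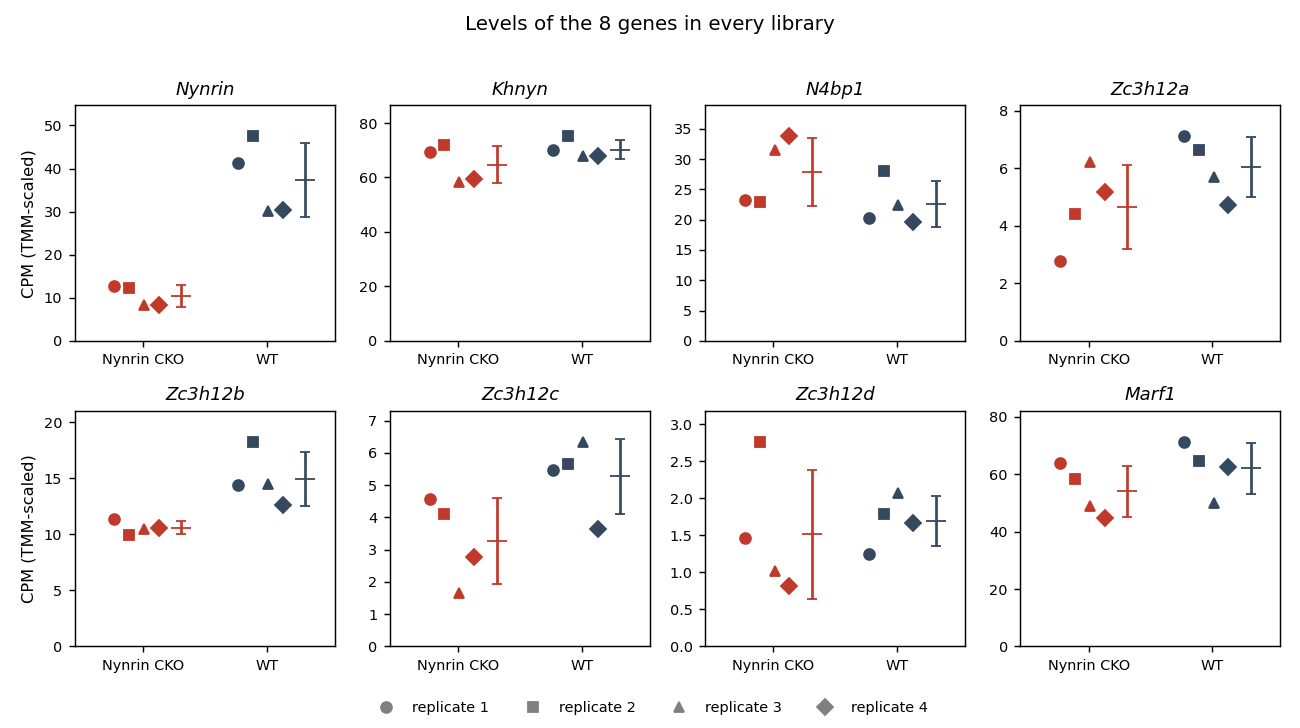
Levels of the 8 genes in each library, in TMM-scaled CPM on linear axes that start at 0, with Nynrin CKO on the left and WT on the right of each panel. Symbols mark the replicate number, and bars beside them show the mean ± SD of 4 libraries. The groups are apart for Nynrin (8.22 to 12.7 against 30.1 to 47.5 CPM) and Zc3h12b (9.95 to 11.4 against 12.6 to 18.3 CPM) and overlap for the other 6 genes.

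Khnyn, the relative next to Nynrin, was the most abundant member per kb of transcript, and its groups were not apart. Its levels were 69.4, 71.8, 58.5 and 59.4 CPM in Nynrin CKO 1 to 4, against 70.1, 75.2, 67.8 and 67.9 CPM in WT 1 to 4. The groups overlapped, and the 2 lowest values were those of Nynrin CKO 3 and 4. The log2 fold change was -0.12 with a 95% interval from -0.35 to 0.11 (edgeR, adjusted p = 0.635; exact permutation p = 0.257). On the linear scale that interval runs from 0.785 to 1.08 times the WT level, so it does not reach the size of the Nynrin difference. With 2470 to 3480 counts per Nynrin CKO library and 2886 to 3556 per WT library, Khnyn was measured with the smallest standard error of the 8 genes (0.10).

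Zc3h12b, the X-linked Regnase-1 paralog, was the other member whose groups did not overlap, a pattern of lower levels found in 4.83% of all tested genes. It stood at 11.4, 9.95, 10.5 and 10.6 CPM in Nynrin CKO 1 to 4, against 14.4, 18.3, 14.5 and 12.6 CPM in WT 1 to 4. The Nynrin CKO values lay close together, while WT 2 stood highest among the WT libraries. The means were 10.6 ± 0.597 CPM in Nynrin CKO and 14.9 ± 2.38 CPM in WT (SD, n = 4 each). The difference did not pass the threshold in edgeR (log2 fold change -0.50, SE 0.15, 95% interval -0.83 to -0.16, adjusted p = 0.0990), and the exact permutation p was 0.0286, the smallest possible. DESeq2 called it (log2 fold change -0.53, adjusted p = 0.0119), and it was the only one of 22 alternatives to do so. Over all genes DESeq2 called 897 lower, beside 162 in the edgeR fit. Among the 6 libraries with low Xist the log2 fold change was -0.59 (edgeR, adjusted p = 0.175), and once the dependence on transcript length and GC had been taken out it was -0.26.

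The other Regnase genes were expressed at low levels. Zc3h12a, which encodes Regnase-1 itself, had 2.79, 4.42, 6.24 and 5.19 CPM in Nynrin CKO 1 to 4, against 7.12, 6.64, 5.69 and 4.74 CPM in WT 1 to 4. Nynrin CKO 1 was lowest and WT 1 highest, and the groups overlapped (log2 fold change -0.38, 95% interval -0.98 to 0.23, edgeR adjusted p = 0.540). The direction differed between library sets, with -0.85 among libraries with more receptor reads and 0.27 among those with few. Zc3h12c (Regnase-3) had 4.56, 4.11, 1.65 and 2.76 CPM in Nynrin CKO 1 to 4, against 5.48, 5.66, 6.34 and 3.63 CPM in WT 1 to 4. Only WT 4 fell among the Nynrin CKO values, and the log2 fold change of -0.69 had a wide interval (-1.45 to 0.07, edgeR adjusted p = 0.319). Zc3h12d (Regnase-4) was the lowest member, with 1.46, 2.77, 1.01 and 0.817 CPM in Nynrin CKO 1 to 4, against 1.26, 1.79, 2.07 and 1.66 CPM in WT 1 to 4. Nynrin CKO 2 was the highest of the 8 libraries, and the interval of the log2 fold change spanned -1.16 to 0.84 (edgeR adjusted p = 0.905). At 34 to 134 counts per Nynrin CKO library and 52 to 88 per WT library, a difference of moderate size in Zc3h12d was not detectable.

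N4bp1 was the only member with a positive estimate. It had 23.3, 22.9, 31.6 and 33.8 CPM in Nynrin CKO 1 to 4, against 20.2, 28.0, 22.3 and 19.7 CPM in WT 1 to 4. The 2 highest values were Nynrin CKO 3 and 4, and WT 2 lay above Nynrin CKO 1 and 2. The log2 fold change was 0.31 (95% interval -0.09 to 0.70, edgeR adjusted p = 0.405). It was -0.03 among libraries with more receptor reads and 0.73 among those with few, so the sets differed in size, and their difference was not tested. Without WT 4, the only WT library with few receptor reads, it was 0.26, and under scaling by total counts it was 0.00. Marf1 had 63.9, 58.4, 48.7 and 44.8 CPM in Nynrin CKO 1 to 4, against 71.2, 64.4, 49.8 and 62.5 CPM in WT 1 to 4. Its groups overlapped, with Nynrin CKO 3 and 4 again lowest (log2 fold change -0.20, 95% interval -0.54 to 0.14, edgeR adjusted p = 0.560).

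Of the 8 members, 1 fell past the threshold and 0 rose. Over all 27573 tested genes, 0.588% were called lower and 2.22% higher in Nynrin CKO. Groups without overlap and lower in Nynrin CKO were found for 2 members, and for 4.83% of all tested genes. The members' estimates were negative for 7 and positive for 1, with a median log2 fold change of -0.29, beside -0.09 over all tested genes. All of these counts and this median include Nynrin, the deleted gene, so they are not separate evidence about its relatives. The relatives' estimates ran from -0.69 (Zc3h12c) to 0.31 (N4bp1), and Zc3h12b was the only relative with groups apart. The count of 7 and 1 was the same under RLE, upper-quartile and total-count scaling, where total counts moved the median of all genes by -0.25 and upper-quartile factors by -0.11. With the dependence on transcript length and GC taken out, 5 estimates were negative and 3 positive, those of Khnyn (0.08) and Marf1 (0.03) having turned. The members' median was then -0.18, beside -0.13 over all genes. Under DESeq2 the members' median was -0.32, beside -0.39 over all genes with counts. That wider set includes genes that the filter on low counts removed, so its median cannot be set against the -0.09. The 7 relatives of Nynrin thus gave no call in either direction in the edgeR fit.

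**Figure D2:**
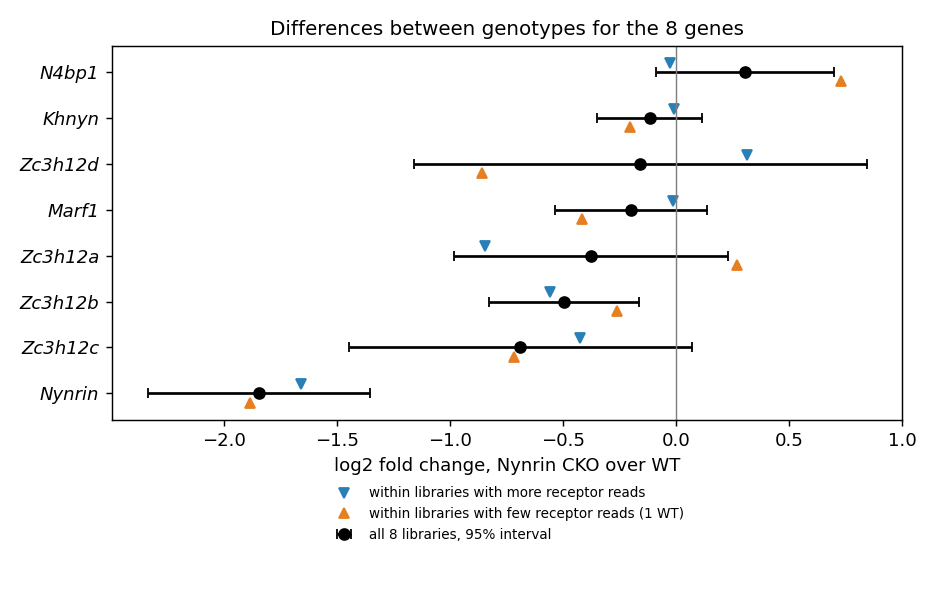
Log2 fold changes of the 8 genes, Nynrin CKO over WT, on the horizontal axis, with black points and bars for the estimate and 95% interval from all 8 libraries. Triangles give the estimates within the libraries with more and with few receptor reads. The interval of Nynrin (-2.34 to -1.35) meets only the wide interval of Zc3h12c (-1.45 to 0.07), and the set estimates lie on opposite sides of 0 for N4bp1, Zc3h12a and Zc3h12d.

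Division by the length of the longest annotated transcript allowed levels to be ordered between genes. In Nynrin CKO libraries the mean level per kb of transcript was highest for Khnyn (11.01 CPM per kb), then Marf1 (6.96), N4bp1 (4.31), Zc3h12a (1.69), Zc3h12b (1.53), Nynrin (1.38), Zc3h12c (0.484) and Zc3h12d (0.370). Neighbours in this order overlapped in range for Zc3h12a and Zc3h12b, for Zc3h12b and Nynrin, and for Zc3h12c and Zc3h12d. In WT libraries the order of mean levels per kb was Khnyn (11.9 CPM per kb), Marf1 (8.00), Nynrin (4.97), N4bp1 (3.49), Zc3h12a (2.19), Zc3h12b (2.16), Zc3h12c (0.781) and Zc3h12d (0.414). There the overlapping neighbours were Nynrin with N4bp1 and Zc3h12a with Zc3h12b. Nynrin thus stood at rank 6 in Nynrin CKO and at rank 3 in WT. The longest transcripts of Khnyn and Zc3h12b are not protein-coding. With the longest coding transcript instead, an alternative chosen after the data were seen, Zc3h12b moved to rank 4 in Nynrin CKO (3.74 CPM per kb) and to rank 3 in WT (5.27 CPM per kb), where Nynrin then took rank 4.

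Nynrin made up a smaller part of the summed level of the family in Nynrin CKO libraries than in WT libraries. The share and the sum of all 8 include the deleted gene, so they restate its difference and are no separate evidence about the family. Nynrin supplied 4.94 ± 0.908% of the summed level per kb of the 8 genes in Nynrin CKO and 14.5 ± 1.85% in WT (SD, n = 4 each; two-sided exact permutation p = 0.0286, 0.0429 after Benjamini-Hochberg adjustment over 3 measures). The sum of the 8 genes was 27.7 ± 1.62 CPM per kb in Nynrin CKO and 34.0 ± 3.45 CPM per kb in WT, again without overlap (exact permutation p = 0.0286, adjusted 0.0429). Without Nynrin, the 7 others summed to 26.4 ± 1.30 CPM per kb in Nynrin CKO and 29.0 ± 2.31 CPM per kb in WT, a difference that did not pass (exact permutation p = 0.171, adjusted 0.171). No increase of the other members' summed level was seen beside the lower Nynrin level, and the difference of the sums of these 7 was -2.62 CPM per kb, Nynrin CKO minus WT. Khnyn (11.01 CPM per kb in Nynrin CKO) and Marf1 (6.96) are the largest parts of this sum, so it says little about the smaller members.

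**Figure D3:**
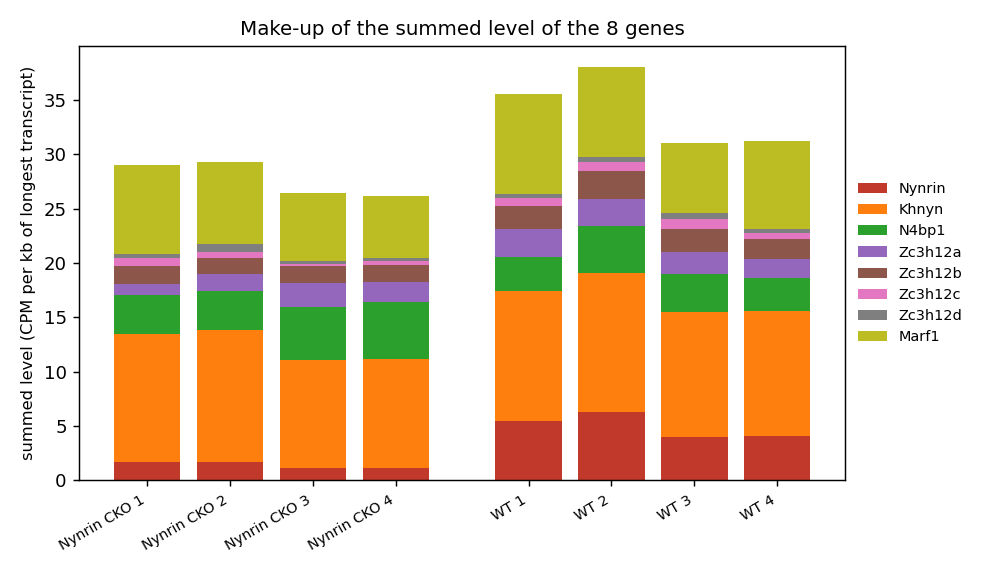
Stacked bars of the level per kb of longest transcript for the 8 genes in each library, with the 4 Nynrin CKO libraries left of the 4 WT libraries and the vertical axis starting at 0. The sums run from 26.2 to 29.3 CPM per kb in Nynrin CKO and from 31.0 to 38.1 CPM per kb in WT, and the bottom segment, Nynrin, is 4.14% to 5.83% of the bar in Nynrin CKO and 12.9% to 16.6% in WT.

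Genes that work with the members, or that their RNases cut, were read from lists. Among 12 other nucleases of the PIN fold, 1 rose and 1 fell, where 2.22% of all tested genes were called higher and 0.588% lower, with a median log2 fold change of 0.23 beside -0.09 over all tested genes. Fcf1, which takes part in processing of small-subunit ribosomal RNA, averaged 96.4 ± 5.51 CPM in Nynrin CKO and 55.5 ± 8.42 CPM in WT (log2 fold change 0.80, SE 0.12, edgeR adjusted p = 0.0345). Smg5, a nonsense-mediated decay factor with a PIN domain, averaged 34.8 ± 3.46 CPM in Nynrin CKO and 54.3 ± 3.83 CPM in WT (log2 fold change -0.64, SE 0.11, edgeR adjusted p = 0.0382). Both genes had groups that did not overlap, as did 9.52% of all tested genes in the higher direction and 4.83% in the lower. Nob1, a nuclease of small-subunit ribosomal RNA, was called higher in 6 of the 22 alternatives (log2 fold change 0.59 and edgeR adjusted p = 0.0514 with all 8 libraries). Smg6, the active endonuclease of the same decay pathway, averaged 51.6 ± 4.34 CPM in Nynrin CKO and 53.7 ± 3.70 CPM in WT (log2 fold change -0.06, edgeR adjusted p = 0.838).

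Known or proposed targets of Regnase-1 did not pass the test in either direction. Of 24 on the list 22 were tested, 0 were called by edgeR, and 3 had an unadjusted p under 0.05. Over all tested genes that share was 18.9%. DESeq2 called 1 target higher, Nfkb1 (log2 fold change 0.44, adjusted p = 0.0397), and limma-voom called 0. Over all genes DESeq2 called 1493 higher, beside 611 in the edgeR fit. Among the libraries with more receptor reads edgeR called 2 lower, Nfkbiz (-0.89, adjusted p = 0.0333) and Ptgs2 (-0.88, adjusted p = 0.0340), whose estimates over all 8 libraries were positive (0.44 and 0.59). That fit called 857 genes lower in all. Nfkb1, an NF-kB subunit gene, averaged 148 ± 20.9 CPM in Nynrin CKO and 106 ± 8.07 CPM in WT (log2 fold change 0.47, edgeR adjusted p = 0.0722). Icos, a T cell costimulatory receptor gene, was at 6.03 ± 3.15 CPM in Nynrin CKO and 2.78 ± 0.438 CPM in WT (log2 fold change 1.11, edgeR adjusted p = 0.147). Summed T and NK cell markers were 146 to 292 CPM in Nynrin CKO and 59.0 to 86.9 CPM in WT. Nkg7 alone averaged 201 ± 71.6 CPM in Nynrin CKO and 60.8 ± 16.5 CPM in WT, while Cd3e averaged 1.13 and 0.844 CPM. Of the 8 markers, 5 had positive and 3 negative estimates, and the part of such cells in the Icos difference was not tested. Gata2 and Tal1, transcription factor genes of early blood cells, had log2 fold changes of -0.14 and -0.10 (edgeR adjusted p = 0.712 and 0.786). The median of the list was 0.34, and many of its cytokine genes lay near or under 1 CPM in both groups.

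Among 20 regulators and partners of the Regnases and N4bp1, 1 rose and 1 fell, beside 2.22% and 0.588% of all tested genes, with a median log2 fold change of 0.04. Casp8, whose product cleaves N4BP1, averaged 194 ± 17.4 CPM in Nynrin CKO and 115 ± 14.9 CPM in WT (log2 fold change 0.76, SE 0.12, edgeR adjusted p = 0.0379). Nedd4, the ubiquitin ligase after which N4bp1 is named as a binding partner, averaged 125 ± 9.05 CPM in Nynrin CKO and 189 ± 6.51 CPM in WT (log2 fold change -0.60, SE 0.10, edgeR adjusted p = 0.0361). Each had groups that did not overlap, beside 9.52% of all tested genes that were higher and 4.83% that were lower in this way. Malt1, the paracaspase that cleaves Regnase-1 and N4BP1, had a log2 fold change of 0.03 (edgeR adjusted p = 0.977), with 11.1 and 9.58 CPM in Nynrin CKO 1 and 2, 25.4 and 23.8 CPM in Nynrin CKO 3 and 4, and 17.1 ± 1.79 CPM in WT.

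On a list of 10 genes drawn up around antiviral decay by ZAP and KHNYN, 1 rose and 0 fell, beside 2.22% and 0.588% of all tested genes. Rnf135, encoding a ubiquitin ligase that acts in RIG-I signalling, averaged 46.8 ± 4.12 CPM in Nynrin CKO and 32.5 ± 3.63 CPM in WT (log2 fold change 0.52, SE 0.12, edgeR adjusted p = 0.0494). Zc3hav1, which encodes ZAP, and Trim25, its ubiquitin ligase cofactor, had log2 fold changes of 0.17 and 0.12 (edgeR adjusted p = 0.798 and 0.809). Tiparp and Parp12, which encode ADP-ribosyltransferases, were called higher in 5 and 2 of the 22 alternatives. Of 10 decapping factors listed with Marf1, 1 rose and 0 fell in the edgeR fit, while DESeq2 called Limd1 (log2 fold change -0.58, adjusted p = 0.0143) and Dcp1a (-0.55, adjusted p = 0.0249) lower. Limd1 was also called lower with library set as a term (-0.45, edgeR adjusted p = 0.0443). Over all genes, DESeq2 called 897 lower and the fit with library set as a term called 408. The gene that rose was Pnrc2, a decapping coactivator, at 191 ± 15.5 CPM in Nynrin CKO and 133 ± 13.8 CPM in WT (log2 fold change 0.51, SE 0.11, edgeR adjusted p = 0.0491). Dcp2, the decapping enzyme, had a log2 fold change of 0.26 (edgeR adjusted p = 0.269). The medians of these 2 lists were 0.14 and -0.09.

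Nynrin was also set beside other mouse genes derived from retroelements, such as the Rtl and Pnma genes. Of 18 listed 15 were tested, and Nynrin was the only one called in the edgeR fit of all 8 libraries. Over all tested genes, that fit called 0.588% lower and 2.22% higher. Nynrin is the deleted gene, so its call is not evidence about the others on the list. Asprv1, a retroviral-like protease gene, was called lower by DESeq2 (log2 fold change -1.47, adjusted p = 0.0348). Arc, a gag-derived gene, was called lower by limma-voom (-2.49, adjusted p = 0.0495) and by edgeR among libraries with more receptor reads (-3.10, adjusted p = 0.0223), at means of 1.28 CPM in Nynrin CKO and 3.001 CPM in WT. Over all genes, 897 were called lower by DESeq2, 504 by limma-voom and 857 by edgeR among libraries with more receptor reads. The list's median log2 fold change was -0.41, with 4 positive and 11 negative estimates. That median is the estimate of Rtl3 (SE 1.39), at means of 0.363 CPM in Nynrin CKO and 0.483 CPM in WT, and the list includes Nynrin itself. Rtl5 and Rtl6, gag-derived genes with measurable levels, had log2 fold changes of -0.22 and -0.16 (edgeR adjusted p = 0.636 and 0.609), and Gin1, which like Nynrin encodes an integrase-like domain, had 0.26 (edgeR adjusted p = 0.298). The calls named from these lists held in only part of the 22 alternatives: in 8 for Fcf1, 9 for Smg5, 8 for Casp8, 10 for Nedd4, 6 for Rnf135 and 6 for Pnrc2. Their log2 fold changes kept their sign in all 22.

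**Figure D4:**
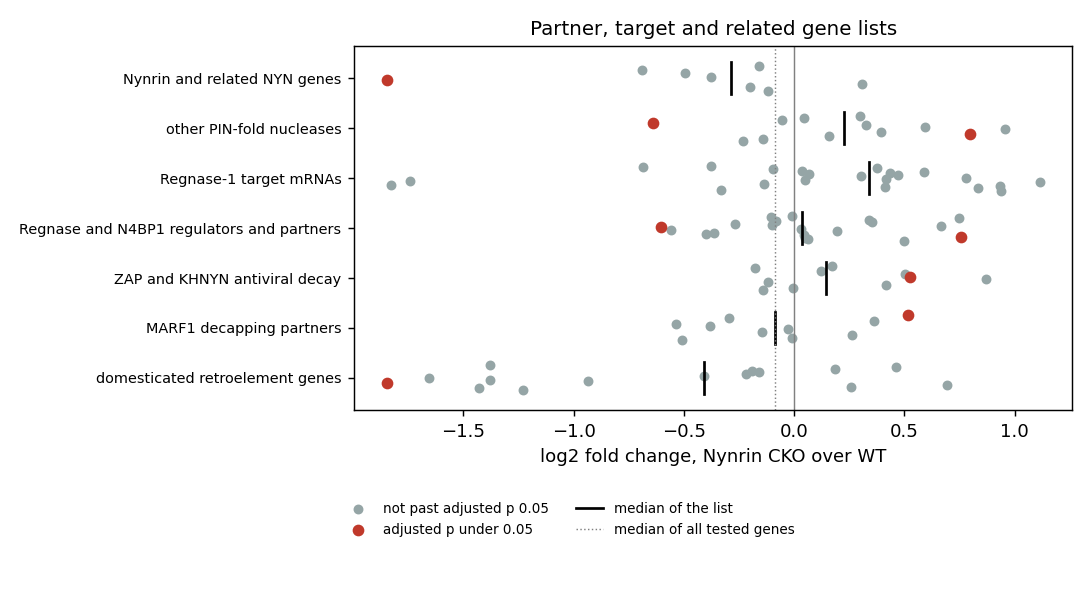
Log2 fold changes, Nynrin CKO over WT, of every tested gene in the member set and in 6 related lists, 1 point per gene, red where the edgeR adjusted p is under 0.05. The list medians (black bars) run from -0.41 for the retroelement-derived genes to 0.34 for Regnase-1 targets, beside -0.09 for all tested genes (dotted line), and no list has more than 2 red points.

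The genes around Nynrin were examined in a window of 200 kb on either side. It held 31 other records, 23 of them protein-coding: Mdp1, Nedd8, Gmpr2, Tinf2, Tgm1, Rabggta, Dhrs1, Nop9, Cideb, Ltb4r2, Ltb4r1, Adcy4, Ripk3, Nfatc4, Cbln3, Khnyn, Sdr39u1, Cma1, Cma2, Mcpt1, Mcpt9, Mcpt2 and Mcpt4. Of the 19 that were tested, 1 was called higher and 0 lower, beside 2.22% and 0.588% of all tested genes, and the median log2 fold change was 0.30 with 14 positive and 5 negative estimates. Nedd8, the ubiquitin-like protein gene at -182 kb, averaged 88.8 ± 21.6 CPM in Nynrin CKO and 50.1 ± 6.52 CPM in WT (log2 fold change 0.83, SE 0.17, edgeR adjusted p = 0.0457), a call that held in 7 of 22 alternatives. The 4 nearest genes gave no call. Nfatc4 at -20.1 kb had a log2 fold change of 0.24 (edgeR adjusted p = 0.890) and Sdr39u1 at 22.5 kb had 0.18 (adjusted p = 0.486). Cbln3, which starts 4.18 kb after Nynrin ends, had 0.937 ± 0.282 CPM in Nynrin CKO and 1.82 ± 0.980 CPM in WT (log2 fold change -0.95, edgeR adjusted p = 0.417), and the groups overlapped. The lower level of Nynrin was thus not shared by a called neighbour in this window.

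Estimates above 1 on the log2 scale came from genes of myeloid and mast cells. Cma1, a mast cell chymase gene, had 0.975, 0.599, 4.96 and 5.22 CPM in Nynrin CKO 1 to 4, against 0.555, 0, 0.188 and 0.0764 CPM in WT 1 to 4 (log2 fold change 3.83, edgeR adjusted p = 0.0982). Ltb4r1, a leukotriene receptor gene of neutrophils, had 2.44, 2.35, 10.6 and 11.5 CPM in Nynrin CKO 1 to 4, against 1.55, 2.12, 0.940 and 1.64 CPM in WT 1 to 4 (log2 fold change 2.10, edgeR adjusted p = 0.0805). Nynrin CKO 3 and 4, where both genes were highest, also had the highest neutrophil marker sums (4081 and 4115 CPM) and mast and basophil marker sums (204 and 205 CPM). The part of those cells in the neighbours' values was not tested.

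**Figure D5:**
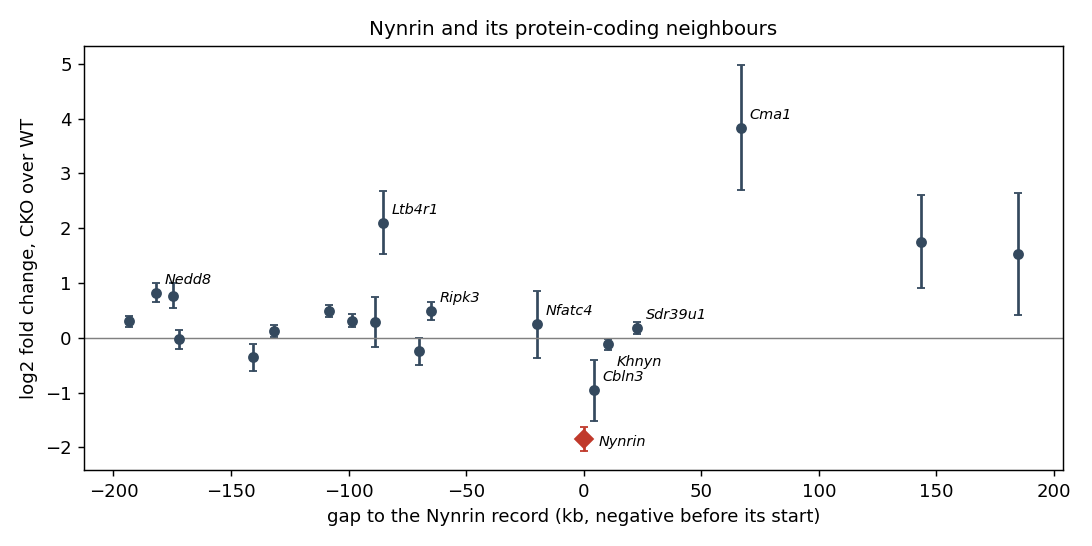
Log2 fold change, Nynrin CKO over WT, with its standard error, for Nynrin (red diamond at 0) and the 19 tested protein-coding neighbours, by their gap to the Nynrin record in kb. Nynrin at -1.85 lies below every neighbour, the lowest being Cbln3 at -0.95, and Cma1 is the highest at 3.83.

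The genes whose levels followed Nynrin most closely over the 8 libraries were Xpnpep3, Trappc12, Eef1aknmt, Tln1 and Mpp7. Pearson's r of log2(CPM + 1) with Nynrin was 0.995 for Xpnpep3, 0.993 for Trappc12, 0.992 for Eef1aknmt, 0.992 for Tln1 and 0.991 for Mpp7, out of 9285 genes with a mean of at least 10 CPM. These are descriptions over libraries that share the genotype difference and the library sets, and no test was attached. Xpnpep3, an aminopeptidase gene, was at 9.97, 10.5, 9.19 and 8.68 CPM in Nynrin CKO 1 to 4, against 17.9, 19.2, 16.0 and 16.2 CPM in WT 1 to 4. It shared with Nynrin the order in which WT 1 and 2 lay above WT 3 and 4 and Nynrin CKO 1 and 2 above Nynrin CKO 3 and 4. Its difference was smaller than that of Nynrin on the log2 scale (-0.86, SE 0.13, edgeR adjusted p = 0.0345). Of the members with at least 10 CPM, Zc3h12b followed Nynrin most closely (r = 0.908), then Khnyn (0.722) and Marf1 (0.656), while N4bp1 ran opposite (r = -0.588).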

How the data were processed

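The authors deposited a single table of raw read counts for each gene and library, per the file headers, and the whole-number values fit that. Per the labels' protocols, Trizol was used for total RNA of the sorted HSCs, and libraries were made from 5 ng of cDNA. The series text names a transposase-based kit. Coordinates are those of mm10, the build named in the submitters' processing notes. The aligner, counter, strand setting and annotation release were not given in the sources used here, and reads of overlapping records can fall on either. No overlapping record held 10% or more of a member's counts.

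The test across genes was that of edgeR 4.0.16 under R 4.3.3 (filterByExpr, TMM factors, robust quasi-likelihood F-test, Benjamini-Hochberg adjustment over 27573 genes, threshold 0.05). CPM values carry the same TMM factors. Intervals use an SE derived from the log2 fold change and its F statistic, with the total (prior plus residual) degrees of freedom. Exact two-sided permutation tests used log2(CPM + 1) for genes. Levels per kb used GENCODE M21 transcripts of the same build. Receptor reads of 300 CPM divided the library sets and Xist of 100 CPM its classes, and within-set values came from 1 model with a mean per group and set. Total counts of 36942835 to 56437299 per library set the precision, and genes near 1 CPM are imprecise.

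The members, gene lists and library sets were chosen with earlier results of these data known. From each list, the text names at most 4 called genes, by p, and where there were none the 2 lowest by p. Smg6, Nob1, Nfkbiz, Ptgs2, Tiparp, Parp12, Limd1, Dcp1a, Asprv1, Arc, Gata2, Tal1, Malt1, Zc3hav1, Trim25, Dcp2, Rtl5, Rtl6 and Gin1 were added for their roles or their calls under an alternative, after their values were seen. Alternatives were other scalings and filters, DESeq2 1.42.0, limma-voom in limma 3.58.1, a replicate term, omission of each library, library set and Xist subsets, sums of similar libraries, and removal of a length and GC trend.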

Additional observations from a re-analysis of the deposited data

How the results depend on the processing

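The Nynrin log2 fold change was negative in all 22 alternatives, from -2.08 to -1.53, and 13 kept the call. It was lost with a replicate block (-1.85, adjusted p = 0.0501), among libraries with low Xist (-2.07, 0.107) and with the similar Nynrin CKO libraries summed (-1.90, 0.402). Without 1 library in turn the log2 fold change ran from -2.0 to -1.70 and the number of members called lower was 0 or 1. That number was also 0 with the replicate block, with low-Xist libraries and with summed libraries, and 2 with DESeq2. Libraries with the same replicate number did not consistently deviate together: deviations from the group means correlated at 0.198, 0.210, -0.256 and 0.387 for numbers 1 to 4. Between different numbers the values reached 0.280 (Nynrin CKO 1 with WT 3), 0.247 (Nynrin CKO 2 with WT 3) and 0.378 (Nynrin CKO 3 with WT 4). The replicate block left 0 genes called higher and 0 lower. The signs of Khnyn (0.08) and Marf1 (0.03) turned with the length and GC trend removed, and that of N4bp1 (-0.03) among libraries with more receptor reads. Without 1 library the Zc3h12d log2 fold change ran from -0.61 to 0.06. Its sign turned in 5 settings: 0.01 and 0.06 without Nynrin CKO 3 and 4, 0.31 among libraries with more receptor reads, 0.02 with low Xist and 0.00 with limma-voom. The numbers of genes called higher and lower, 611 and 162 in the edgeR fit, moved far more than the members. They were 13 and 22 with RLE factors, 59 and 318 under scaling by total counts, 225 and 251 under upper-quartile scaling, 33 and 16 with no filter, 707 and 475 with a filter of 1 CPM, 1221 and 408 with library set as a term, and 1311 and 857 among libraries with more receptor reads. They were 0 and 0 with low Xist, 0 and 0 with summed libraries, 2 and 2 with the length and GC trend removed, 1493 and 897 with DESeq2, and 1649 and 504 with limma-voom. Without 1 library they ran from 1 to 1129 and from 0 to 243, with 1129 and 243 when WT 4 was left out and at most 6 and 4 otherwise. At an unadjusted p under 0.05 there were 3629 higher and 1593 lower genes in the edgeR fit. Fewer samples enter the subset, summed and leave-one-out fits, and for the other settings the cause was not tested. Nynrin's share of the family sum kept its direction in all 10 of its alternatives. It kept the call in the 2 that used all 8 libraries; with 7 libraries the exact permutation test cannot give a p under 0.0571. At the depth of Zc3h12d (34 to 134 counts in Nynrin CKO libraries and 52 to 88 in WT libraries), small differences cannot be read.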
